A study of Mus musculus with 40 samples.

Results

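Glucose enters a brown adipocyte through facilitative transporters and is committed to glycolysis by 2 early steps, phosphorylation by hexokinase and by phosphofructokinase. The levels of 10 genes that carry or control these steps were compared in brown adipose tissue (BAT) of 40 mice. The genes were picked by name: the glucose transporters *Slc2a1* and *Slc2a4*, the hexokinases *Hk1* and *Hk2*, the phosphofructokinases *Pfkl*, *Pfkm* and *Pfkp*, and *Pfkfb1*, *Pfkfb2* and *Pfkfb3*, the enzymes that make and break fructose 2,6-bisphosphate. All 10 were among the 20295 genes counted, and all 10 passed the filter on low counts, which kept 13277 genes for testing.

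The mice were males housed at 29 °C and fell into 8 groups of 5, one library per mouse. C-3BO mice, 13 to 19 weeks old, carried a *Gpr3* transgene that Cre driven by *Ucp1* switches on in brown and beige adipocytes from early life. Their controls were littermates that carried the transgene or Cre alone. These mice were fed chow (Chow control, Chow C-3BO) or received a high fat diet (HFD, 60 kcal% fat) for 7 days (HFD control, HFD C-3BO). The second cohort was 15 weeks old, labelled wild type, and came from control littermates of an inducible line (I-3BO), so that a transgene or a Cre allele alone may be present. These mice were injected daily for 9 days with an agonist of the β3-adrenergic receptor, CL-316,243 (CL), at 1 mg/kg, or with saline, and ate chow or HFD (Chow saline, Chow CL, HFD saline, HFD CL). On HFD, injections began 2 days before the diet was changed. The question was how the RNA of these genes differed with receptor overexpression, agonist and diet.

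The *Slc2a4* product GLUT4 moves to the cell surface in response to insulin and is typical of muscle and fat, while GLUT1, from *Slc2a1*, serves basal uptake and is abundant in endothelium. Hexokinase II (*Hk2*) is the main form of insulin-responsive tissues, and hexokinase I (*Hk1*) is present in most cells. Phosphofructokinase is a tetramer of liver-type, muscle-type and platelet-type subunits, the products of *Pfkl*, *Pfkm* and *Pfkp*. Its allosteric activator fructose 2,6-bisphosphate is set by the bifunctional PFKFB enzymes. Skeletal muscle is rich in *Pfkm* and *Slc2a4*, so muscle in a dissected BAT sample adds RNA of both.

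Promoters are shown for genes whose rises are described below: *Pfkp*, called higher in every treatment comparison, *Hk2*, which rose with CL on chow, and *Pfkl*, another phosphofructokinase subunit, which rose in that comparison alone. Each run covers 250 bases before to 50 bases after the RefSeq start on GRCm38.p6, a later build than the mm9 of the counts, and all are on the reverse strand. They lie at chr13:6648722-6649021 (*Pfkp*), chr6:82774405-82774704 (*Hk2*) and chr10:78009758-78010057 (*Pfkl*). Capitals mark the letters TGACG (the core of a cAMP response element), CACGTG (E-box) and GGGCGG (GC box) on either strand.
Pfkp: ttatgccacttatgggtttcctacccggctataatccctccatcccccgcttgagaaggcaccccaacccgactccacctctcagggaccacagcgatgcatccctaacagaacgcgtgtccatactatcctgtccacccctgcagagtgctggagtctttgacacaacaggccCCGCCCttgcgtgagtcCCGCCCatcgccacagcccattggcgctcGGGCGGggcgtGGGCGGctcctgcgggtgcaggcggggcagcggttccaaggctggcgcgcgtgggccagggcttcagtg
Hk2: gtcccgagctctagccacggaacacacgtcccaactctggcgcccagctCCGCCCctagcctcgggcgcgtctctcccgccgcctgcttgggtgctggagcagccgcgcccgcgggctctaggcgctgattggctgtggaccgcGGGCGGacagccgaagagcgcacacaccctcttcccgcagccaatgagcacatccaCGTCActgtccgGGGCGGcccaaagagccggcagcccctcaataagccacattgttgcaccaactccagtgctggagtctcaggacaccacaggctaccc
Pfkl: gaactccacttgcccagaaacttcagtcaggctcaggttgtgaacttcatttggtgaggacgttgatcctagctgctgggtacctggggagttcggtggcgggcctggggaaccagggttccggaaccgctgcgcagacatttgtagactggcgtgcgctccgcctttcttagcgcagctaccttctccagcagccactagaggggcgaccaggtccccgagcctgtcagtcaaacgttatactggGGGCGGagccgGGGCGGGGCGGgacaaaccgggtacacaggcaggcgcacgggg

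The *Pfkp* window held 4 GC boxes, the *Hk2* window 3 and the *Pfkl* window 3. In *Pfkl* they begin 4 bases before and 7 and 12 bases after the start, and those at 7 and 12 overlap. The core TGACG was found in *Hk2*, 50 bases before the start, and not in the *Pfkp* or *Pfkl* windows, and CACGTG was in none of these windows. Of 32851 RefSeq promoter windows of this length, 35.7% held GGGCGG, 20.8% TGACG and 7.15% CACGTG. The full element TGACGTCA was in 1.79% of windows and in none of the windows of these genes. Promoter windows were matched for all of the genes but *Slc2a4*, and these matches are descriptions of letters only.

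Library totals lay between 849126 and 15260516 counts. In 12 libraries (all HFD saline, all HFD CL, and replicates 4 and 5 of HFD C-3BO) transcripts of liver (*Alb*, 62.2 to 294 counts scaled to the library total, CPM) and of epididymis were present. In the other libraries *Alb* was at 1.62 CPM or less. Diet and this feature cannot be told apart in the injected cohort. *Gpr3* was 266 to 463 CPM in Chow C-3BO and 688 to 918 CPM in HFD C-3BO mice, and under 1 CPM in all of their controls. *Ucp1*, the uncoupling protein that defines brown adipocytes, was above 1000 CPM in every library. In Chow CL replicate 5, *Ucp1* was 1644 CPM, within the 1267 to 1865 CPM of Chow saline, while the other 4 Chow CL mice had 5943 CPM or more. Chow CL replicate 3 had *Gpr3* at 9.15 CPM, above every other injected mouse, and without it the log2 fold change with CL on chow was 1.01, adjusted p = 0.000168 for *Pfkp* and 1.01, adjusted p = 0.0131 for *Hk2* by edgeR. In BAT as a whole, fewer cells of a type and less RNA per cell cannot be told apart.

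Per kilobase of exon, so that genes can be compared, *Slc2a4* was the most abundant of the 10 genes, at 227 ± 63.4 CPM per kb (mean and SD over 40 libraries). It was followed by *Pfkl* at 183 ± 48.3, *Pfkfb3* at 131 ± 43.2 and *Hk2* at 109.6 ± 43.1 CPM per kb. Each of these 4 genes was the most abundant of its family. *Pfkm* (61.8 ± 21.1), *Pfkp* (39.9 ± 16.3), *Pfkfb1* (23.5 ± 4.91) and *Hk1* (17.0 ± 5.89) formed a middle tier on the same scale. *Slc2a1* at 4.48 ± 1.24 and *Pfkfb2* at 3.83 ± 0.872 CPM per kb were lowest, and 3 counts was the smallest number behind any *Slc2a1* value. Neighbours in this order overlapped within 1 SD, except for *Hk1* and *Slc2a1*, which were apart.

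**Figure D1:**
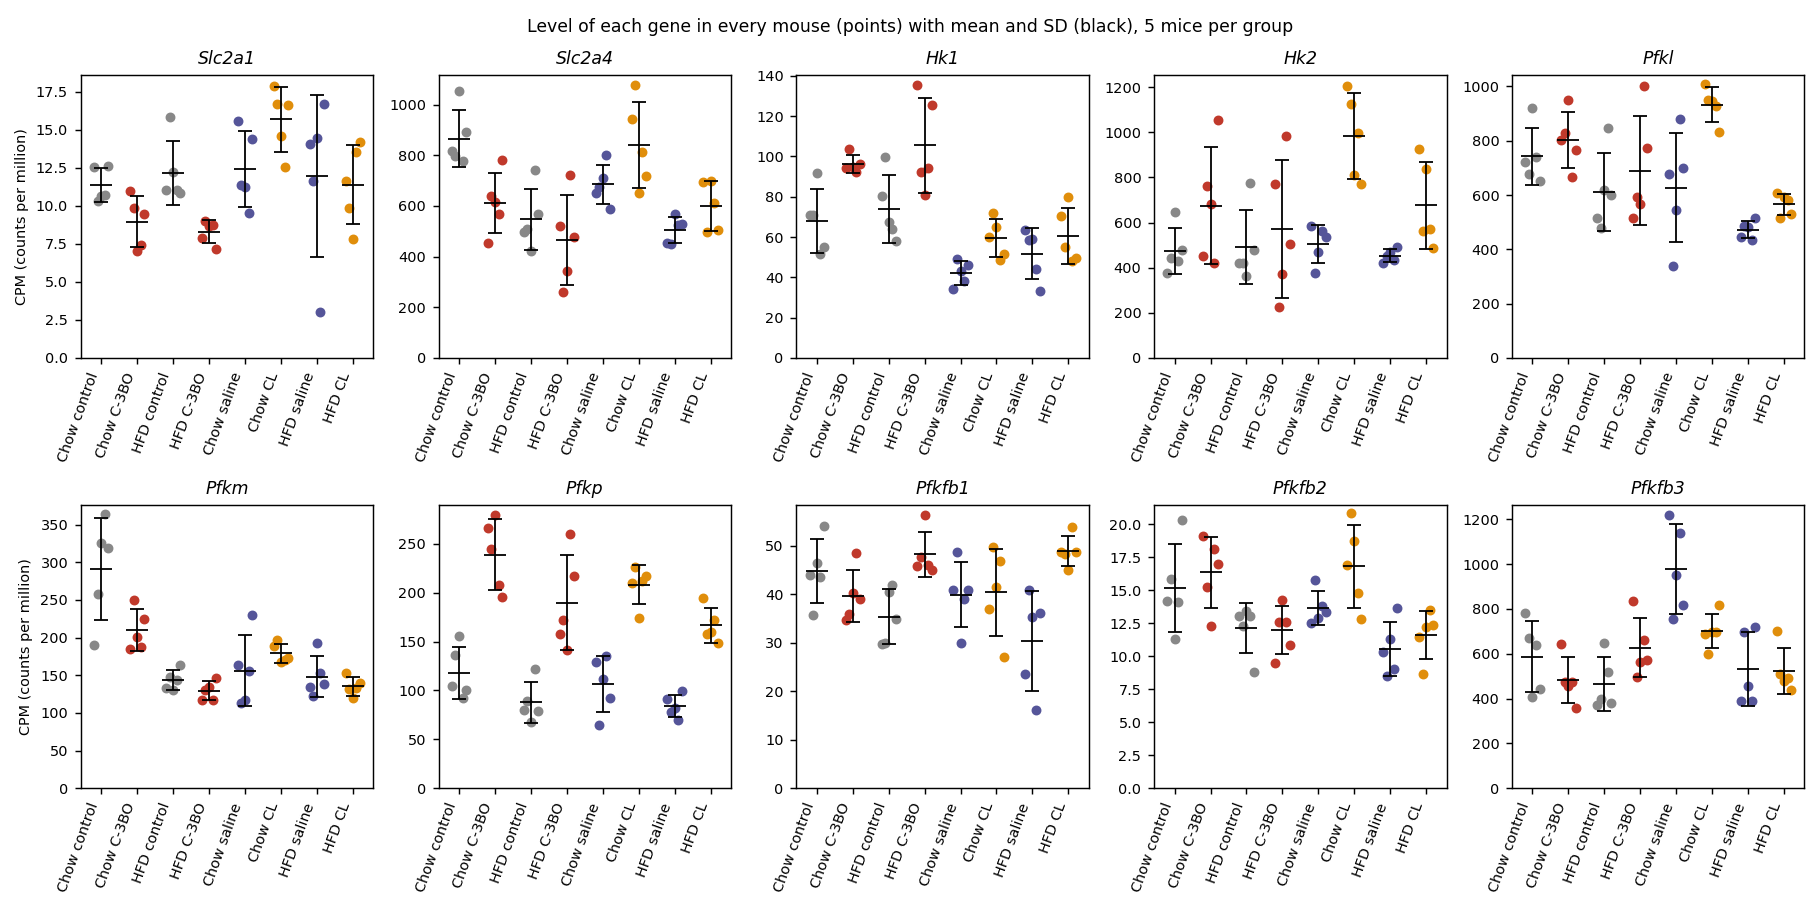
Level of each of the 10 genes in every mouse, in CPM on a linear axis from 0, for the 8 groups of 5 mice (points), with mean and SD (black). The *Pfkp* points of Chow C-3BO (195 to 279 CPM) and Chow CL (174 to 227 CPM) lie above those of their control groups, and the *Pfkm* points of Chow control lie at 189.7 to 364 CPM.

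Between group means, *Pfkp* had the widest range of the 10 genes, from 84.1 ± 11.3 CPM (SD, n = 5) in HFD saline to 239 ± 36.2 CPM in Chow C-3BO mice, a 2.84-fold span. *Hk1* followed, from 42.1 ± 5.86 CPM in Chow saline to 106 ± 23.5 CPM in HFD C-3BO mice (2.50-fold). *Pfkfb2* had the narrowest span, 1.59-fold, and *Pfkfb1* a span of 1.61-fold. *Hk2*, *Pfkl* and *Pfkfb2* were each lowest in HFD saline and highest in Chow CL. *Slc2a4* and *Pfkm* were both lowest in HFD C-3BO and highest in Chow control mice.

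The make-up of each family was described as the share of a gene in the summed CPM per kb of its family. *Slc2a4* made up 97.5% ± 1.11 to 98.6% ± 0.211 of the transporter pair. *Hk1* was 7.67% ± 1.48 of the hexokinase pair in Chow CL and 22.7% ± 8.85 in HFD C-3BO mice. *Pfkfb3* held 77.8% ± 3.19 of its family in HFD CL and 88.3% ± 3.29 in Chow saline mice. In the phosphofructokinase family *Pfkl* held between 59.8% ± 4.63 in Chow control and 68.4% ± 4.30 in HFD control mice. The share of *Pfkp* was 9.39% ± 1.79 in Chow control and 17.9% ± 1.73 in Chow C-3BO mice, and 9.80% ± 1.52 and 17.9% ± 1.21 on HFD. In the injected cohort it was 11.4% ± 1.98 with saline and 14.97% ± 1.52 with CL on chow, and 11.1% ± 1.34 and 18.1% ± 0.879 on HFD. The share of *Pfkm* was the larger in the control group of each of these pairs, for example 26.0% ± 3.73 in HFD saline against 19.7% ± 1.53 in HFD CL mice. It was 30.8% ± 5.56 in Chow control and 21.2% ± 2.76 in Chow C-3BO mice. Muscle RNA adds *Pfkm* to the family sum, so the shares of *Pfkp* and *Pfkl* also depend on it, to an extent that was not tested.

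**Figure D2:**
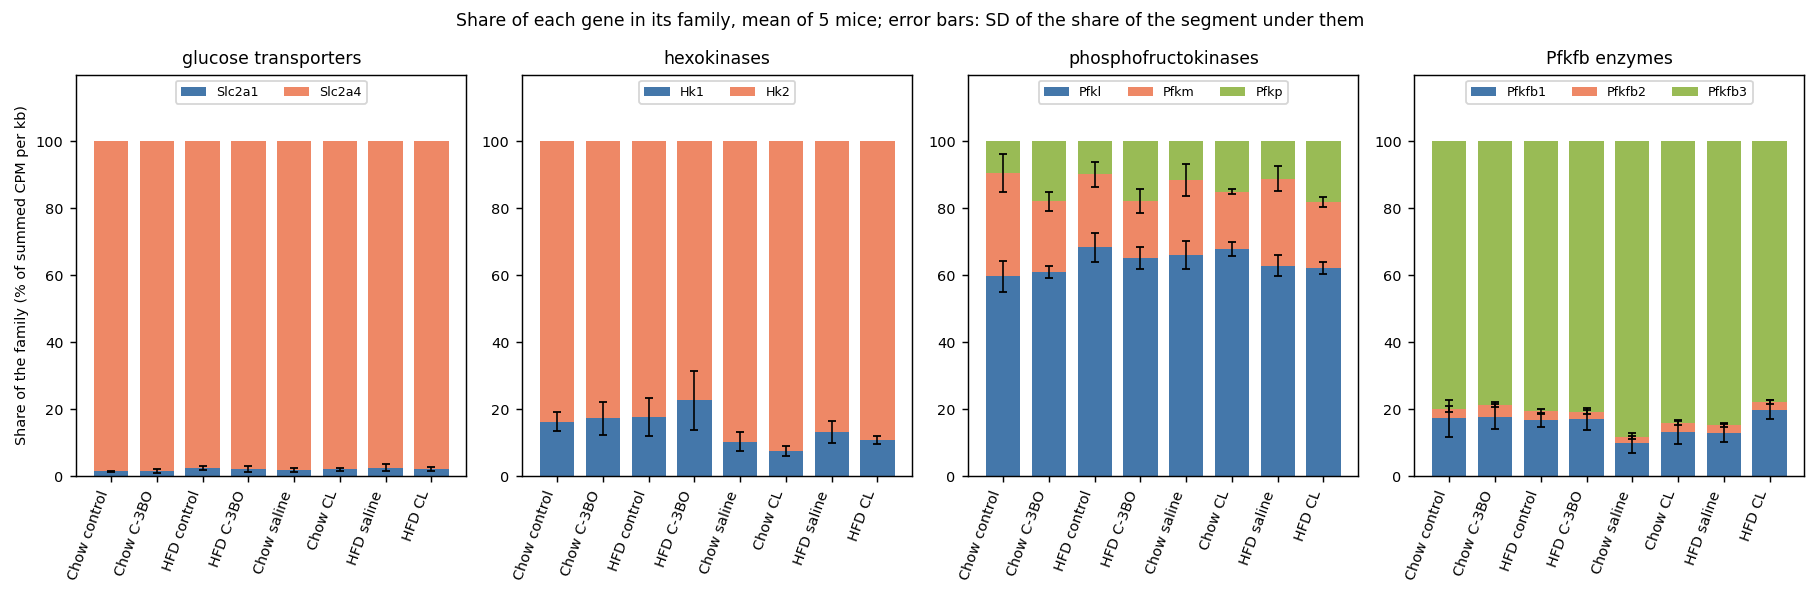
Share of each gene in its family, as a percentage of the family's summed CPM per kb, in the 8 groups (mean of 5 mice, error bars are SDs, drawn for all but the top segment). *Slc2a4*, *Hk2*, *Pfkl* and *Pfkfb3* form the largest segment in every group, and the *Pfkp* segment is 18.1% in HFD CL against 11.1% in HFD saline mice.

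Of the 10 genes, CL on chow raised 4 and lowered none, CL on HFD raised 2 and lowered none, C-3BO on chow raised 2 and lowered 2, and C-3BO on HFD raised 3 and lowered 1 (edgeR quasi-likelihood test, adjusted p under 0.05 over all genes tested). Of all genes tested, 9.16% rose and 6.13% fell with CL on chow, and 12.7% rose and 10.8% fell with CL on HFD. In C-3BO mice 15.8% rose and 15.9% fell on chow, and 19.3% rose and 15.5% fell on HFD. The 4 rises of 10 with CL on chow are a larger share than this background, but the count was 2 without Chow saline replicate 3 and 3 or 4 without any other 1 of these libraries. Without adjustment, p was under 0.05 for 1 fall with CL on chow (*Pfkfb3*) and for none with CL on HFD, and DESeq2 called no fall with CL on either diet. *Pfkp* alone was called in all 4 comparisons, and *Hk1* was called in 3. The median log2 fold change of the 10 genes was 0.31 with CL on chow and 0.23 with CL on HFD. For C-3BO it was -0.03 (chow) and 0.19 (HFD). That of all genes tested lay between -0.03 and -0.01.

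**Figure D3:**
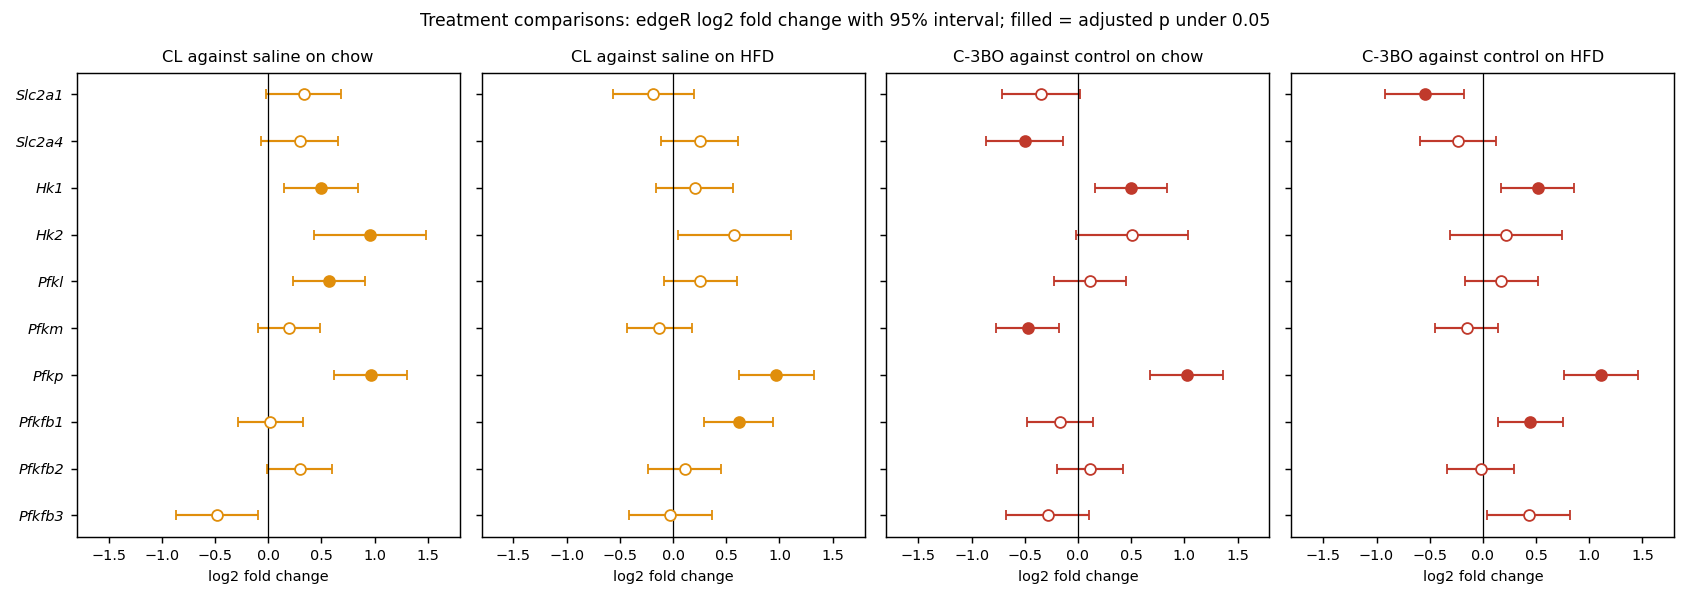
Log2 fold change (horizontal axis) of the 10 genes in the 4 treatment comparisons, with 95% intervals, and filled symbols where the adjusted p of edgeR is under 0.05. *Pfkp* lies near 1 in every panel (0.96, 0.97, 1.02 and 1.11), and the other genes are filled in 3 panels or fewer.

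*Pfkp*, the platelet-type subunit of phosphofructokinase (mm9 chromosome 13, 6579120 to 6648017, reverse strand), was higher in every treated group than in its control. In Chow saline mice it measured 129.6, 64.8, 111, 135 and 92.5 CPM and in Chow CL mice 210.1, 227, 174, 212 and 217 CPM. On HFD it measured 91.2, 78.1, 82.0, 70.2 and 99.2 CPM with saline and 195, 158, 159.7, 172 and 148 CPM with CL. No CL value overlapped a saline value of the same diet. The fold was 1.95 on chow (log2 fold change 0.96, SE 0.17, adjusted p = 0.000112) and 1.96 on HFD (log2 fold change 0.97, SE 0.17, adjusted p = 7.00e-05). Chow CL replicate 5, whose *Ucp1* was at the saline level, had *Pfkp* at 217 CPM, and without it the log2 fold change was 0.94, adjusted p = 0.000299 by edgeR.

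In Chow control mice *Pfkp* measured 105, 136, 155, 91.8 and 100.5 CPM and in Chow C-3BO mice 266, 245, 279, 208 and 195 CPM. On HFD the control values were 80.1, 89.7, 67.4, 122 and 79.4 CPM and the C-3BO values 158, 172, 141, 260.4 and 217 CPM. Again every C-3BO mouse was above every control of its diet. The fold was 2.03 on chow (log2 fold change 1.02, SE 0.17, adjusted p = 1.56e-05) and 2.16 on HFD (log2 fold change 1.11, SE 0.17, adjusted p = 3.13e-06). Without HFD C-3BO replicates 4 and 5, the libraries with liver transcripts and the highest *Pfkp* of their group, the log2 fold change on HFD was 0.84, adjusted p = 0.000526 by edgeR. In each of the 4 comparisons the exact two-sided permutation test over 5 against 5 mice gave p = 0.00794, the smallest it can give, or 0.0373 adjusted over 80 tests. *Pfkp* stayed called in all 4 under the alternatives tried, except that its CL differences, below 1 on the log2 scale, did not pass when a log2 fold change over 1 was also asked for. Of all genes tested, 4.15% were called higher in all 4 comparisons, and 1.53% had every treated mouse above every control in all 4. In the GENCODE annotation of mm9, exons of *Pfkp* overlap *Pitrm1* on the other strand over 372 bases, 3.96% of the 9395 exon bases of *Pfkp* there. The length counted here was 3757 bases, and how much of the overlap lies in it was not examined. *Pitrm1* itself was between 66.2 and 90.0 CPM in all libraries, with log2 fold changes of -0.08 to 0.07 in these comparisons.

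The other subunits of phosphofructokinase moved less or the other way. *Pfkl*, the liver-type subunit (mm9 chromosome 10, 77449694 to 77472541, reverse strand), measured 677, 337, 544, 881 and 699 CPM in Chow saline and 1010.3, 951, 948, 927 and 833 CPM in Chow CL mice. The groups overlapped through 1 saline mouse, and *Pfkl* rose 1.49-fold (log2 fold change 0.57, SE 0.17, adjusted p = 0.0167). That call was lost without Chow saline replicate 2 (0.40, adjusted p = 0.082) or 3 (0.51, adjusted p = 0.0595), and in a fit of the 10 libraries alone (0.56, adjusted p = 0.0884). On HFD, all 5 CL mice (516 to 609 CPM) were above all 5 saline mice (435 to 514 CPM), yet the difference was small and not called (log2 fold change 0.26 ± 0.17, adjusted p = 0.287 by edgeR), except in a fit of those 10 libraries alone (0.24, adjusted p = 0.0282). In C-3BO mice the log2 fold changes of *Pfkl* were 0.11 ± 0.17 on chow and 0.17 ± 0.17 on HFD, with adjusted p of 0.639 and 0.442 by edgeR.

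*Pfkm*, the muscle-type subunit (mm9 chromosome 15, 97923020 to 97962878, forward strand), fell in C-3BO mice on chow, from 189.7, 258, 326, 364 and 319 CPM in controls to 185, 250.5, 201, 188 and 224 CPM (log2 fold change -0.47, SE 0.15, adjusted p = 0.0118). The groups overlapped, and the call was lost without Chow control replicate 4 (-0.38, adjusted p = 0.0551). The summed level of 20 muscle markers was 1382 to 15136 CPM in Chow control (median 12753 CPM) and 759.6 to 6874 CPM in Chow C-3BO mice (median 2387 CPM). The ranges overlapped, and the level varied widely between mice. The median log2 fold change of these markers was -1.55, and 3 of the 20 were called lower, a share near that of all genes tested (15.9%). With a muscle score as covariate the log2 fold change of *Pfkm* was -0.30, adjusted p = 0.0352. With CL on chow, *Pfkm* was not called (0.20 ± 0.15, adjusted p = 0.398) while 17 of 20 muscle markers fell (summed 70.1 to 4164 CPM with saline and 69.2 to 298 CPM with CL). With the covariate it was called higher (0.48, adjusted p = 0.00376 by edgeR). In every such fit the score enters on the log2 scale with 1 slope over all 40 libraries. It was 0.88 to 6.98 in Chow saline and 0.75 to 3.30 in Chow CL mice. Whether the gained call stems from that form of the fit was not tested. On HFD the log2 fold change of *Pfkm* was -0.13 ± 0.15 for CL and -0.15 ± 0.15 for C-3BO, neither called by edgeR, and none of the 20 muscle markers was called in either comparison.

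*Hk2* (mm9 chromosome 6, 82675021 to 82724448, reverse strand) rose with CL on chow. It measured 587, 376, 470.3, 562 and 535 CPM with saline and 1207, 1127, 811, 996 and 773 CPM with CL, without overlap, a 1.94-fold difference (log2 fold change 0.96, SE 0.26, adjusted p = 0.0101). Without Chow CL replicate 5 the log2 fold change was 1.02, adjusted p = 0.00877 by edgeR. On HFD the values were 423, 454, 470.1, 432 and 492 CPM with saline and 927, 564, 837, 569.7 and 485 CPM with CL, which overlapped in 1 CL mouse and were not called (log2 fold change 0.57, SE 0.26, adjusted p = 0.11). A fit of these 10 libraries alone called it (0.56, adjusted p = 0.00958). In C-3BO mice *Hk2* varied over 421 to 1055 CPM on chow and 224 to 983 CPM on HFD, and was not called by edgeR (0.51 ± 0.26, adjusted p = 0.132 on chow, and 0.21 ± 0.26, adjusted p = 0.554 on HFD).

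*Hk1* (mm9 chromosome 10, 61731603 to 61842656, reverse strand), lower in level than *Hk2*, rose in C-3BO mice on both diets and with CL on chow. On chow, controls measured 71.1, 71.0, 91.6, 51.6 and 55.2 CPM and C-3BO mice 94.2, 103, 94.8, 92.1 and 96.1 CPM, every C-3BO mouse above every control (log2 fold change 0.50, SE 0.17, adjusted p = 0.0216). On HFD, controls measured 80.3, 99.9, 67.3, 63.9 and 57.8 CPM and C-3BO mice 135, 92.2, 80.6, 94.1 and 125 CPM, which overlapped (log2 fold change 0.51, SE 0.17, adjusted p = 0.016). The HFD call was lost without replicates 4 and 5 of HFD C-3BO (0.48, adjusted p = 0.0664), and also without HFD control replicate 5 (0.0651), HFD C-3BO replicate 1 (0.071) or HFD C-3BO replicate 5 (0.0511), as adjusted p by edgeR. On chow it was lost without Chow control replicate 4 (0.0763) or 5 (0.0637). With CL on chow *Hk1* was 48.7 to 72.0 CPM against 34.4 to 48.9 CPM, overlapping by 1 mouse (log2 fold change 0.50, SE 0.17, adjusted p = 0.0424), and the call was lost without any 1 of Chow saline replicates 1, 3 and 4 or Chow CL replicates 1, 2 and 3 (adjusted p 0.0725 to 0.134) and with the muscle score as covariate (0.49, adjusted p = 0.0608). Scaled by library totals alone, none of the 3 calls of *Hk1* held (log2 fold changes 0.35, 0.30 and 0.34). With CL on HFD it was 0.20 ± 0.18 and not called.

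The transporters fell in C-3BO mice, each on 1 diet, and neither was called with CL. *Slc2a4* (mm9 chromosome 11, 69755788 to 69761692, reverse strand) measured 815, 795, 1051, 776 and 892 CPM in Chow control and 455, 640.5, 616, 566 and 782 CPM in Chow C-3BO mice. The groups touched at 1 C-3BO mouse, and *Slc2a4* fell (log2 fold change -0.50, SE 0.18, adjusted p = 0.0286). The call was lost without Chow control replicate 3 (0.104) or Chow C-3BO replicate 1 (0.116), 3 (0.0639) or 4 (0.0773), as adjusted p by edgeR, and with the muscle score as covariate (-0.45, adjusted p = 0.0524). On HFD *Slc2a4* was not called in C-3BO mice (-0.24 ± 0.18, adjusted p = 0.318), but without the 2 libraries that carried liver transcripts it was lower (-0.55, adjusted p = 0.0284 by edgeR), as it was without replicate 4 alone (-0.45, adjusted p = 0.045). Those libraries, replicates 4 and 5, held 722 and 479 CPM, and the other HFD C-3BO mice 519, 260.2 and 345 CPM. With CL the log2 fold changes of *Slc2a4* were 0.30 ± 0.18 on chow (95% interval -0.06 to 0.65) and 0.25 ± 0.18 on HFD (95% interval -0.11 to 0.61).

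*Slc2a1* (mm9 chromosome 4, 118781350 to 118809934, forward strand) measured 11.0, 15.8, 12.2, 11.0 and 10.8 CPM in HFD control and 7.89, 9.03, 8.68, 8.76 and 7.17 CPM in HFD C-3BO mice, without overlap (log2 fold change -0.55, SE 0.18, adjusted p = 0.0178). The call was lost without HFD control replicate 2 (-0.45, adjusted p = 0.0673), which had the highest value, and on leaving out HFD C-3BO replicates 4 and 5 (-0.51, adjusted p = 0.0755). Of 4 endothelial markers, 3 also fell in this comparison, with sums of 1342 to 1744 CPM in HFD control and 1111 to 1274 CPM in HFD C-3BO mice. Against chow, all 4 were higher on HFD in control, C-3BO and CL mice and 2 in saline mice. *Slc2a1* was not called in those 4 backgrounds. With CL on HFD, 1 endothelial marker rose. The part of endothelial RNA in the result was not tested. On chow *Slc2a1* was -0.35 ± 0.18 in C-3BO mice (adjusted p = 0.139) and 2 of the 4 endothelial markers fell, and with library totals alone it was called lower (-0.54, adjusted p = 0.0201). With CL it was 0.33 ± 0.17 on chow and -0.19 ± 0.19 on HFD, neither called by edgeR. HFD saline replicate 4, the shallowest library, gave *Slc2a1* only 3 counts (3.01 CPM), and without it the value on HFD was -0.32, adjusted p = 0.176.

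Among the PFKFB enzymes, *Pfkfb1* (mm9 chromosome X, 147024464 to 147078421, forward strand) rose on HFD under both treatments. With saline it measured 23.6, 40.8, 35.3, 16.0 and 36.2 CPM and with CL 48.8, 48.2, 45.1, 53.8 and 48.7 CPM (log2 fold change 0.62, SE 0.16, adjusted p = 0.00441). In HFD control mice it was 29.8, 30.0, 40.5, 41.9 and 34.8 CPM and in HFD C-3BO mice 45.8, 47.6, 56.4, 46.0 and 45.1 CPM (log2 fold change 0.45, SE 0.15, adjusted p = 0.0209). Every treated mouse was above every control in both comparisons. The 2 lowest HFD saline values came from libraries 1 and 4, and without replicate 4 the CL difference was 0.51, adjusted p = 0.0149 by edgeR. The C-3BO call was lost without HFD control replicate 1 (0.0784) or 2 (0.0763) or HFD C-3BO replicate 3 (0.0665), as adjusted p, and with library totals alone (0.29, adjusted p = 0.148). On chow *Pfkfb1* was 0.02 ± 0.15 with CL and -0.17 ± 0.15 in C-3BO mice. The gene has 4 promoter windows in RefSeq, which counts per gene do not separate. Exons of *Pfkfb1*, *Pfkfb2*, *Hk1* and *Slc2a1* overlap a gene on the other strand over 1.51% to 3.68% of their length in the GENCODE annotation. That length is greater than the one counted for each of these genes.

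*Pfkfb3* (mm9 chromosome 2, 11393058 to 11475556, reverse strand), whose product favours synthesis of fructose 2,6-bisphosphate, was not called in any treatment comparison, except with library totals alone, where it was lower with CL on chow (-0.61, adjusted p = 0.0187) and in C-3BO mice on chow (-0.48, adjusted p = 0.0393), and in the settings given next. With CL on chow it was 601 to 816 CPM against 755 to 1221 CPM with saline (log2 fold change -0.48, SE 0.19, adjusted p = 0.0846), and the 10 libraries alone gave -0.50, adjusted p = 0.0416 by edgeR. In C-3BO mice on HFD it was 497 to 837 CPM against 371 to 649 CPM in controls (log2 fold change 0.43, SE 0.19, adjusted p = 0.0796), and called without HFD control replicate 3 (0.56, adjusted p = 0.0262). *Pfkfb2* (mm9 chromosome 1, 132585620 to 132625830, reverse strand), of low level, had log2 fold changes of 0.30 ± 0.15, 0.11 ± 0.17, 0.11 ± 0.15 and -0.02 ± 0.16 in CL on chow, CL on HFD, C-3BO on chow and C-3BO on HFD, none called by edgeR.

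Beside the tests, the groups were compared by overlap. Every CL mouse was above every saline mouse for 2 of the 10 genes on chow (*Hk2* and *Pfkp*) and for 3 on HFD (*Pfkl*, *Pfkp* and *Pfkfb1*), where 5.88% and 9.67% of all genes tested had this pattern. Every C-3BO mouse was above every control for 2 genes on chow (*Hk1* and *Pfkp*) and 2 on HFD (*Pfkp* and *Pfkfb1*), with 10.4% and 11.4% of all genes. Every C-3BO mouse on HFD was below every control for *Slc2a1*, with 9.43% of all genes.

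HFD lowered members of the set and raised none in the fit over all libraries with TMM factors and no block, whereas a replicate block called *Pfkfb3* higher in C-3BO mice (0.35, adjusted p = 0.0454), and with library totals alone *Pfkfb1* was called higher in C-3BO (0.46, adjusted p = 0.022) and CL mice (0.46, adjusted p = 0.0292) and *Pfkfb3* in C-3BO mice (0.56, adjusted p = 0.0178 by edgeR). HFD lowered 2 genes in control mice, 2 in C-3BO mice, 1 in saline mice and 4 in CL mice. Of all genes tested, 15.4% rose and 17.5% fell in control mice, 13.5% rose and 12.2% fell in C-3BO mice, 7.45% rose and 8.04% fell in saline mice, and 10.9% rose and 12.7% fell in CL mice. The 4 of 10 in CL mice is a larger share than its background, but the count was 1 to 3 when 1 library was left out, with 1 without Chow CL replicate 2 or HFD CL replicate 2, and 2 with RLE factors or with library totals alone, where 1 was higher and 1 lower. No rise had p under 0.05 without adjustment in any of the 4 backgrounds by edgeR, and DESeq2 called none. The median log2 fold change of the 10 genes was -0.32 in control, -0.23 in C-3BO, -0.32 in saline and -0.43 in CL mice, against medians of -0.01 to 0.03 over all genes. These comparisons use the same groups as the treatment comparisons.

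**Figure D4:**
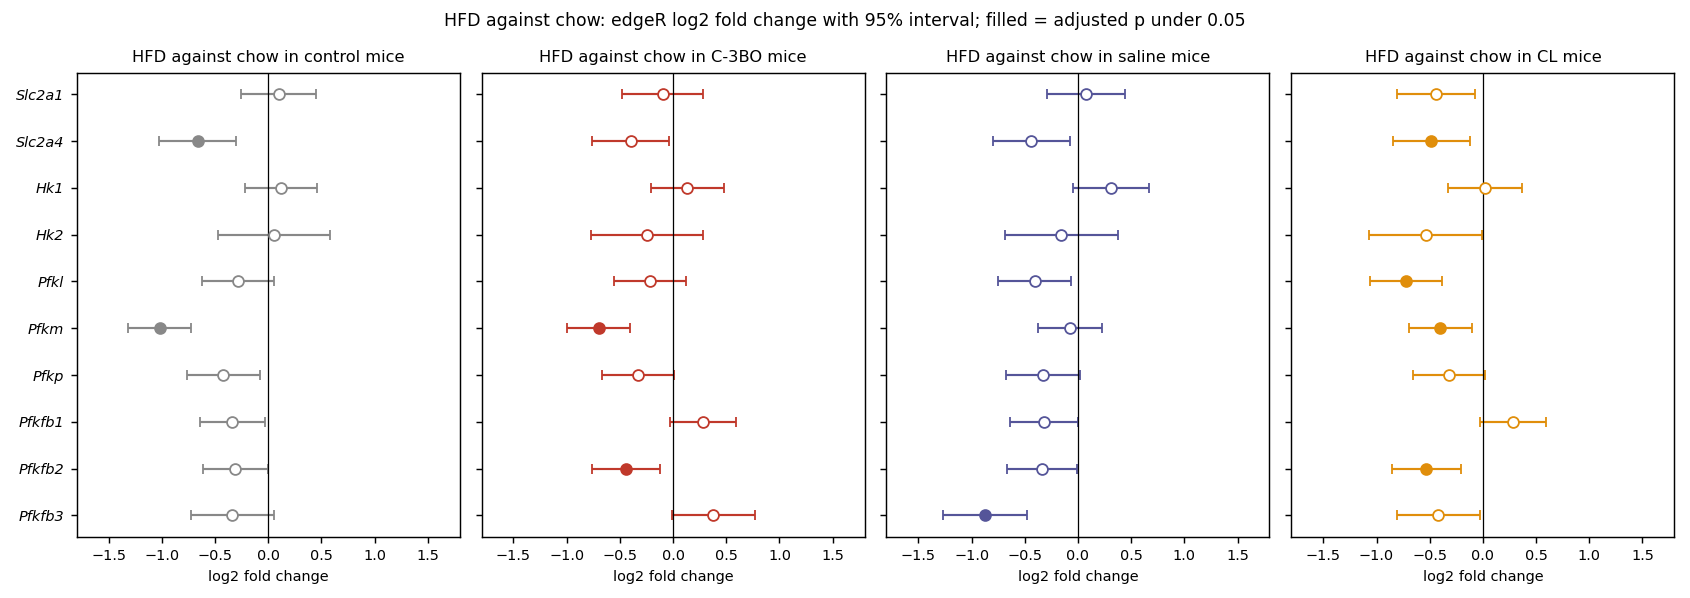
Log2 fold change (horizontal axis) of the 10 genes for HFD against chow in the 4 backgrounds, with 95% intervals, and filled symbols where the adjusted p of edgeR is under 0.05. The filled symbols all lie below 0, from -1.02 for *Pfkm* in control mice to -0.40 for *Pfkm* in CL mice.

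*Pfkm* and *Slc2a4* fell in control mice. *Pfkm* went from the chow values given above to 133, 148, 129.9, 144 and 163 CPM on HFD, all below the lowest chow value (log2 fold change -1.02, SE 0.15, adjusted p = 1.32e-06). *Slc2a4* went to 498, 509, 421, 740.2 and 566 CPM, again below every chow mouse (log2 fold change -0.66, SE 0.18, adjusted p = 0.00372). Every HFD mouse was below every chow mouse for 9.44% of all genes tested in this comparison. In C-3BO mice *Pfkm* measured 117, 130.2, 135, 117 and 147 CPM on HFD (log2 fold change -0.70, SE 0.15, adjusted p = 0.000529), and *Slc2a4* was not called (log2 fold change -0.40, SE 0.18, adjusted p = 0.0986). Without replicates 4 and 5 of HFD C-3BO the values were -0.72, adjusted p = 0.00383 for *Pfkm* and -0.71, adjusted p = 0.00755 for *Slc2a4*, which was also called without replicate 4 alone (-0.64, adjusted p = 0.0071) or without Chow C-3BO replicate 1 (-0.51, adjusted p = 0.0459).

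Skeletal muscle RNA differed between the diets in these groups. All 20 muscle markers fell on HFD in control and in C-3BO mice. Their summed level was 1382 to 15136 CPM in Chow control and 67.3 to 403 CPM in HFD control mice, 759.6 to 6874 CPM in Chow C-3BO and 68.9 to 169 CPM in HFD C-3BO mice. *Acta1*, the actin of skeletal muscle, was 189.6 to 2804 CPM in Chow control and 0.936 to 57.7 CPM in HFD control mice. With a muscle score (mean log2 CPM of the markers) as covariate, the HFD difference of *Pfkm* was -0.32, adjusted p = 0.196 in control and -0.14, adjusted p = 0.552 in C-3BO mice. That of *Slc2a4* was -0.40, adjusted p = 0.326 in control mice, and none of these calls remained. The summed markers did not overlap between the diets in control or in C-3BO mice, so this fit cannot tell muscle RNA and diet apart. Across the 40 libraries the log2 level of *Pfkm* correlated with the muscle score at r = 0.814, and at r = 0.72 after the group means were removed. For *Slc2a4* these were 0.441 and 0.23, and for *Pfkp* 0.0809 and 0.146. The points share groups and libraries, and the values are descriptions.

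**Figure D5:**
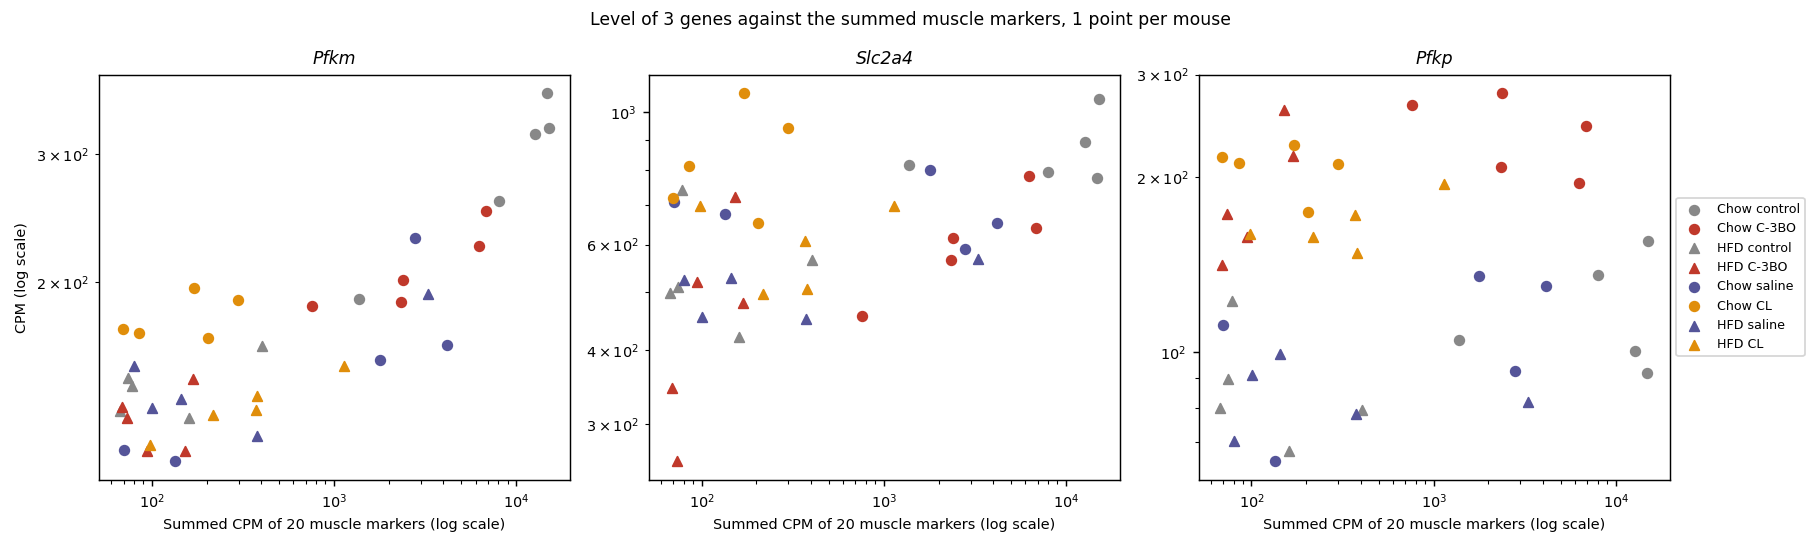
CPM of *Pfkm*, *Slc2a4* and *Pfkp* (vertical log axis) against the summed CPM of 20 muscle markers (horizontal log axis), 1 point per mouse, circles for chow and triangles for HFD, colours for treatment. *Pfkm* rises with the muscle markers (r = 0.814 with the muscle score), *Slc2a4* less so (r = 0.441), and *Pfkp* does not follow them (r = 0.0809).

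In the injected cohort, where all HFD libraries carried liver and epididymis transcripts, diet and library set cannot be told apart. In saline mice *Pfkfb3* fell from 1221, 755, 952, 1139 and 819 CPM on chow to 389.7, 696, 457, 391 and 721 CPM on HFD (log2 fold change -0.88, SE 0.19, adjusted p = 0.002). Most macrophage and white adipocyte markers moved the other way: 3 of 4 and 2 of 3 were called higher on HFD in saline mice, and 1 white adipocyte marker lower. Summed, they were 41.8 to 95.2 CPM on chow and 102 to 249 CPM on HFD for macrophages, and 166 to 357 CPM and 345 to 1045 CPM for white adipocytes. Of the liver and endothelial markers, 12 of 13 and 2 of 4 were also called higher, and 1 liver marker lower. The part of these tissues and cells in the result was not tested. *Pfkfb3* stayed called without the shallow HFD saline replicate 4 (-0.78, adjusted p = 0.0105 by edgeR). In CL mice *Pfkl* fell from the chow values above to 609, 516, 592, 580.1 and 532 CPM (log2 fold change -0.72, SE 0.17, adjusted p = 0.00163). *Pfkfb2* fell from 16.9, 20.9, 18.8, 14.8 and 12.9 CPM to 11.4, 8.66, 12.2, 13.5 and 12.4 CPM, with overlap (log2 fold change -0.53, SE 0.16, adjusted p = 0.0127), and that call was lost without Chow CL replicate 2 (0.071) or HFD CL replicate 2 (0.0551). In C-3BO mice, *Pfkfb2* also fell (log2 fold change -0.44, SE 0.16, adjusted p = 0.0333), a call lost without replicate 1 (0.0723) or 4 (0.0592) of Chow C-3BO or replicate 1 (0.107) or 5 (0.0738) of HFD C-3BO, as adjusted p.

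*Slc2a4* and *Pfkm* were also lower on HFD in CL mice, at the edge of the threshold. *Slc2a4* was 496 to 697 CPM on HFD and 652 to 1077 CPM on chow (log2 fold change -0.48, SE 0.18, adjusted p = 0.0435). *Pfkm* was 119.5 to 153 CPM on HFD and 168 to 196 CPM on chow (log2 fold change -0.40, SE 0.15, adjusted p = 0.0422). Leaving out 1 library ended the call of *Pfkm* for each of the 10 libraries (adjusted p 0.0553 to 0.13) and that of *Slc2a4* for all but Chow CL replicate 3 (0.0502 to 0.192). Both were also lost with RLE factors (0.0554 and 0.057). No muscle marker was called between these groups. In saline mice the log2 difference was -0.44 ± 0.18 for *Slc2a4* (adjusted p = 0.0884) and -0.08 ± 0.15 for *Pfkm*, neither called by edgeR.

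*Pfkp* had HFD against chow log2 fold changes of -0.42 ± 0.17 in control (adjusted p = 0.0508), -0.33 ± 0.17 in C-3BO (0.146), -0.33 ± 0.17 in saline (0.203) and -0.32 ± 0.17 in CL mice (0.167), none called by edgeR. In control mice it was called by DESeq2 and when 1 of Chow control replicates 1, 4 and 5 or HFD control replicate 4 was left out (adjusted p 0.00925 to 0.0464). In C-3BO mice it was called without replicates 4 and 5 of HFD C-3BO (-0.60, adjusted p = 0.0194) or replicate 4 alone (-0.50, adjusted p = 0.0322). *Hk1* lay between 0.02 and 0.31 on the log2 scale in the 4 backgrounds, *Slc2a1* between -0.44 and 0.10, *Hk2* between -0.54 and 0.06, and *Pfkfb1* between -0.34 and 0.28. None of these was called. *Pfkl* was -0.28 ± 0.17 in control, -0.22 ± 0.17 in C-3BO and -0.41 ± 0.17 in saline mice (adjusted p 0.206, 0.364 and 0.0955 by edgeR). *Pfkfb3* was -0.34 ± 0.19 in control, 0.38 ± 0.19 in C-3BO and -0.42 ± 0.19 in CL mice (adjusted p 0.18, 0.152 and 0.11). *Pfkfb2* was -0.31 ± 0.15 in control and -0.34 ± 0.16 in saline mice (adjusted p 0.113 and 0.152). Left-out libraries decided a few of these, as adjusted p by edgeR: in control mice *Pfkl* was called lower without HFD control replicate 4 (0.0499), *Pfkfb1* without Chow control replicate 2 (0.0494) and *Pfkfb2* without Chow control replicate 3 (0.0442). In saline mice *Pfkl* was called lower without Chow saline replicate 2 (0.00965), and in CL mice *Slc2a1* without HFD CL replicate 5 (0.0463). With HFD C-3BO replicates 4 and 5 left out, *Pfkl* was called lower in C-3BO mice (0.037) while *Pfkfb2* was no longer called (0.108).

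Differences between effects were tested directly. Between the diets, neither the C-3BO effect nor the CL effect differed by the edgeR test for any of the 10 genes (HFD minus chow). Without adjustment, p was under 0.05 for 2 genes in the first (*Pfkfb1*, 0.62 ± 0.22, and *Pfkfb3*, 0.72 ± 0.27) and for 2 in the second (*Pfkfb1*, 0.60 ± 0.22, and *Slc2a1*, -0.52 ± 0.26), and DESeq2 called none in either. *Pfkfb1* was called on HFD and not on chow under both treatments, but the difference between diets did not pass for either (adjusted p = 0.131 for C-3BO and 0.38 for CL by edgeR). The difference of effects of *Pfkp* between diets was 0.09 ± 0.24 (95% interval -0.39 to 0.57) for C-3BO and 0.01 ± 0.24 (95% interval -0.48 to 0.49) for CL.

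On chow, the C-3BO effect was below the CL effect for 2 genes, *Slc2a4* (log2 fold change -0.80, SE 0.25, adjusted p = 0.0491) and *Pfkm* (log2 fold change -0.67, SE 0.21, adjusted p = 0.0433), each a difference of log2 fold changes. Of all genes tested, 2.83% had a larger and 3.4% a smaller C-3BO effect. For *Slc2a4* the effects themselves were -0.50 for C-3BO and 0.30 for CL, and for *Pfkm* -0.47 and 0.20. Both calls were lost on leaving out most single libraries, that of *Slc2a4* for 18 of 20 (adjusted p 0.0516 to 0.137) and that of *Pfkm* for 17 of 20 (0.0511 to 0.103). They held for *Slc2a4* without Chow C-3BO replicate 5 or Chow CL replicate 3, and for *Pfkm* without Chow control replicate 1, Chow C-3BO replicate 2 or Chow saline replicate 5. With the muscle score as covariate they were -0.83, adjusted p = 0.0366 for *Slc2a4* and -0.77, adjusted p = 0.0012 for *Pfkm*, with the limit of that fit given above. No gene had a larger C-3BO effect, none at an unadjusted p under 0.05, and DESeq2 called none. On HFD none of the 10 genes differed between C-3BO and CL by edgeR or DESeq2, none had an unadjusted p under 0.05, and the difference for *Pfkp* was 0.14 ± 0.24 (95% interval -0.35 to 0.63). The 2 treatments were tested in different cohorts, each against its own controls.

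The steps around these genes were followed in lists of other genes of glucose metabolism. All genes tested had median log2 fold changes between -0.03 and -0.01 in the treatment comparisons. Of them, 9.16% rose and 6.13% fell with CL on chow, and 12.7% rose and 10.8% fell with CL on HFD. In C-3BO mice 15.8% rose and 15.9% fell on chow, and 19.3% rose and 15.5% fell on HFD. The counts of each list stand beside these shares, were not tested against them, and several are near them. Fructose 1,6-bisphosphatase, the enzyme that opposes phosphofructokinase, rose under every treatment. Of the 4 further enzymes that act on fructose 2,6-bisphosphate or fructose 1,6-bisphosphate, 3 rose and 0 fell with CL on chow (median log2 fold change of the list 1.47), 2 rose and 0 fell with CL on HFD (1.36), 2 rose and 0 fell in C-3BO mice on chow (0.90), and 2 rose and 0 fell in C-3BO mice on HFD (1.06). The log2 rise of *Fbp2* was 2.44 ± 0.27 (CL, chow) and 2.60 ± 0.29 (CL, HFD) and, in C-3BO mice, 1.58 ± 0.26 and 1.82 ± 0.26. In the same order, that of *Fbp1* was 3.37 ± 0.60, 2.35 ± 0.58, 2.49 ± 0.63 and 3.68 ± 0.76 (all adjusted p at most 0.00272 by edgeR). The control means of *Fbp1* were only 0.679, 1.93, 0.604 and 0.178 CPM in that order, near or under the floor of 3 counts, so the size of its rises is uncertain. *Fbp1* is also a gene of liver, and without the 2 HFD C-3BO libraries with liver transcripts its log2 fold change there was 1.60, adjusted p = 0.158. The fructose 2,6-bisphosphatase *9630033F20Rik* (an older name of *Tigar*) rose with CL on chow (0.49 ± 0.15, adjusted p = 0.023), a call lost without Chow saline replicate 1, 2 or 5 or Chow CL replicate 2 or 4 (adjusted p 0.0539 to 0.0769).

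Of 13 further glycolytic enzymes tested out of 14, 5 rose and 2 fell with CL on chow (median log2 fold change of the list 0.45), 5 rose and 1 fell with CL on HFD (0.35), 1 rose and 3 fell in C-3BO mice on chow (0.17), and 3 rose and 1 fell in C-3BO mice on HFD (0.15). With CL on chow the rises included *Tpi1* (0.63 ± 0.10), *Pgk1* (0.72 ± 0.16) and the pyruvate kinase *Pkm* (0.51 ± 0.14), while *Pgam2* (-2.47 ± 0.70) and *Eno3* (-1.75 ± 0.48), forms typical of muscle, fell together with the muscle markers. *Pgam1* rose in C-3BO mice on chow (0.65 ± 0.13) and HFD (0.66 ± 0.13) and with CL on HFD (1.22 ± 0.14). *Gapdh*, *Pgam1*, *Pgk1*, *Tpi1* and *Ldha* have many processed copies in the genome, so their counts are uncertain.

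Of the 6 genes of lactate formation and transport, 2 rose and 1 fell with CL on chow (median log2 fold change of the list 0.06), 3 rose and 2 fell with CL on HFD (0.16), 1 rose and 3 fell in C-3BO mice on chow (-0.25), and 2 rose and 2 fell in C-3BO mice on HFD (0.16). Lactate dehydrogenase A (*Ldha*) rose with CL on chow (0.71 ± 0.16) and HFD (0.60 ± 0.16), and the monocarboxylate transporter *Slc16a1* rose on chow in the C-3BO group (0.60 ± 0.16). Of the 3 genes of the glycerol 3-phosphate shuttle, 2 rose and 0 fell with CL on chow (median log2 fold change of the list 0.46), 1 rose and 0 fell with CL on HFD (0.31), 2 rose and 0 fell in C-3BO mice on chow (0.52), and 1 rose and 1 fell in C-3BO mice on HFD (0.00). The cytosolic dehydrogenase *Gpd1*, which draws on the product of aldolase, rose in all 4, in that order by 0.73 ± 0.19, 0.80 ± 0.19, 0.88 ± 0.19 and 0.48 ± 0.19, and the last of these was 0.17, adjusted p = 0.593 without replicates 4 and 5 of HFD C-3BO. It was also lost without HFD control replicate 1, 2, 3 or 5 or HFD C-3BO replicate 4 or 5 (adjusted p 0.072 to 0.23).

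Of 7 other hexose transporters tested out of 10, 1 rose and 0 fell with CL on chow (median log2 fold change of the list 0.09), 2 rose and 1 fell with CL on HFD (0.10), 2 rose and 0 fell in C-3BO mice on chow (0.01), and 1 rose and 0 fell in C-3BO mice on HFD (-0.08). *Slc2a9* rose with CL on chow (0.82 ± 0.22) and HFD (0.72 ± 0.24) and in C-3BO mice on chow (1.13 ± 0.22). *Slc2a12* rose in C-3BO mice on chow (0.84 ± 0.23) and HFD (1.41 ± 0.24) and with CL on HFD (1.07 ± 0.27). On HFD the fructose transporter *Slc2a5* was lower in every background, with log2 fold changes of -3.61 ± 0.63 in control, -3.69 ± 0.71 in C-3BO, -2.85 ± 0.68 in saline and -2.77 ± 0.64 in CL mice (adjusted p at most 0.00388 by edgeR). Diet and library set cannot be told apart in the saline and CL mice.

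Of the 17 genes from the insulin receptor to *Slc2a4* vesicles, 0 rose and 2 fell with CL on chow (median log2 fold change of the list 0.02), 3 rose and 3 fell with CL on HFD (-0.18), 3 rose and 2 fell in C-3BO mice on chow (-0.07), and 1 rose and 1 fell in C-3BO mice on HFD (0.03). In C-3BO mice these counts were near or below the shares of all genes tested. The insulin receptor *Insr* rose in C-3BO mice on chow (0.57 ± 0.13) and HFD (0.66 ± 0.13) and with CL on HFD (0.39 ± 0.13). *Vamp2*, a vesicle protein, fell with CL on chow (-0.35 ± 0.09) and HFD (-0.59 ± 0.09). The adaptor *Irs1* was lower on HFD in all 4 backgrounds, with log2 fold changes of -0.66 ± 0.15 in control, -0.79 ± 0.15 in C-3BO, -0.92 ± 0.15 in saline and -1.24 ± 0.15 in CL mice. In saline and CL mice diet and library set cannot be told apart. *Lnpep*, an aminopeptidase of the vesicles that carry GLUT4, fell too, at -2.50 ± 0.20 in control and -2.10 ± 0.21 in C-3BO mice. All 20 muscle markers also fell in these backgrounds, and values of *Lnpep* in saline and CL mice are not given. Of the 9 regulators, 2 rose and 2 fell with CL on chow (median log2 fold change of the list -0.09), 3 rose and 2 fell with CL on HFD (0.18), 3 rose and 1 fell in C-3BO mice on chow (-0.14), and 3 rose and 3 fell in C-3BO mice on HFD (0.03). *Myc* fell in all 4 treatment comparisons (in the same order -1.34 ± 0.33, -1.17 ± 0.36, -2.57 ± 0.38 and -2.05 ± 0.35), the second of which was -1.03, adjusted p = 0.0559 without HFD CL replicate 1. *Mlx*, a partner of the glucose-responsive factor ChREBP, rose in all 4 (in the same order 0.51 ± 0.15, 0.43 ± 0.16, 0.58 ± 0.15 and 0.38 ± 0.15). All of these calls but that in C-3BO mice on chow were lost on leaving out some single libraries. *Txnip*, which restrains glucose uptake, fell on HFD with CL (-1.08 ± 0.20) and in C-3BO mice (-1.29 ± 0.20).

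The genes most like each of the 10 were found by Pearson's r of log2 CPM over the 40 libraries, which share groups, diets and depth. For *Pfkp* they were *Cyb5b* (0.949), *Pdhx* (0.937) and *Psmd14* (0.922), the closest match of any of the 10 genes. For *Pfkm* they were *Tmem38a* (0.918), *Des* (0.912) and *Clcn1* (0.898), where desmin (*Des*) is the intermediate filament of muscle. For *Slc2a4* they were *Sbk1* (0.884), *Ank* (0.867) and *Slc37a4* (0.86), and for *Pfkl* *Eif5a* (0.878), *Rtfdc1* (0.856) and *Cox19* (0.844). *Pfkfb1* was closest to *Osbp2* (0.863), *Pigv* (0.751) and *Hist1h2be* (0.736), *Pfkfb2* to *Gm608* (0.828), *Son* (0.803) and *Nsd1* (0.8) and *Hk2* to *Ppp1r3b* (0.778), *Mapkapk3* (0.771) and *Prkab1* (0.763). The weakest matches were those of *Slc2a1*, with *Plekha7* (0.762) and *Cdyl2* (0.743), of *Hk1*, with *Spg7* (0.757), *Usp10* (0.741) and *Rnf130* (0.736), and of *Pfkfb3*, with *Dusp4* (0.704), *Slc1a3* (0.674) and *Slc22a23* (0.653). Between members, *Pfkl* and *Pfkp* had the highest value (r = 0.697), followed by *Slc2a4* and *Hk2* (r = 0.645), *Pfkl* and *Hk2* (0.6) and *Pfkp* and *Hk2* (0.584). *Hk1* and *Pfkfb3* had the lowest (r = -0.396).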

How the data were processed

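RNA sequencing of poly(A) RNA from brown adipose tissue was analysed from the deposited table of raw counts per gene. The authors aligned the reads with STAR to mm9 and counted reads in exons of RefSeq genes with HOMER and iRNA-seq. Tool versions and strandedness are not given in the sources used here, and without strand, overlapping antisense genes cannot be separated. From the counts, CPM with TMM factors were computed, and genes were filtered with filterByExpr (minimum count 10). The quasi-likelihood test of edgeR 4.0.16 (R 4.3.3) was run on all 40 libraries, with the 8 groups as the only term, with Benjamini-Hochberg adjustment over 13277 genes and a threshold of 0.05. Log2 CPM used a prior count of 2. Levels were also compared by exact permutation over mice. A count of 3 is taken as the floor, which lay between 0.206 and 3.01 CPM by library, and covers counting error only. No 2 libraries were identical. Mice are the replicates, and no source states a shared batch for equal replicate numbers. Alternatives were DESeq2 1.42.0, RLE factors, library totals, no filter, the libraries of a comparison alone, a replicate block, a log2 fold change over 1, muscle and liver scores as covariates, and left-out libraries. The code was tested on simulated data. All 10 genes are named, and of each further list some of the up to 3 largest called changes per direction. Genes withheld from this text are not reported here and were left out of the lists of other genes. The members and lists were chosen with earlier results of these data known. Promoter sequences are from RefSeq on GRCm38.p6.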

Additional observations from a re-analysis of the deposited data

Results flagged for a closer look

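In 5 of 80 sets of 5 mice (1 gene in 1 group), 1 mouse stood apart by a gap of more than 0.71 of the whole range. Chance gives about 1 in 20. *Slc2a1* in HFD control replicate 2 was 15.8 CPM, with the nearest of the other mice at 12.2 CPM. *Hk2* in HFD control replicate 4 was 777 CPM, with the nearest of the other mice at 477 CPM. *Pfkfb1* in HFD C-3BO replicate 3 was 56.4 CPM, with the nearest of the other mice at 47.6 CPM. *Pfkfb2* in HFD control replicate 5 was the lowest, at 8.82 CPM, with the nearest of the other mice at 12.3 CPM. *Pfkfb3* in HFD CL replicate 1 was 702 CPM, with the nearest of the other mice at 508 CPM. The C-3BO effect on chow differed from the CL effect on chow for *Slc2a4* by -0.80 and for *Pfkm* by -0.67 (differences of log2 fold changes, edgeR, adjusted p = 0.0491 and 0.0433).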

How the results depend on the processing

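Over 120 gene and comparison pairs of the 10 genes and the alternatives other than a log2 fold change over 1, 2431 of 2600 values kept their call, 116 lost it and 53 gained one, and 0 called values changed sign. *Pfkp* kept its treatment calls in these alternatives, and lost both CL calls where a log2 fold change over 1 was also asked for. The cause of the changes below was not tested.

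Counts of the 10 genes called that moved by over 1.5 times were as follows. With a log2 fold change over 1 in addition the count was 0 for agonist (chow), 0 for agonist (HFD), 1 for transgene (chow), 1 for transgene (HFD), 1 for HFD in control mice, 0 for HFD in C-3BO mice, 0 for HFD in saline mice, 0 for HFD in CL mice and 0 for C-3BO minus CL on chow. With the libraries of a comparison alone the count was 4 for agonist (HFD), 2 for HFD in saline mice, 7 for HFD in CL mice and 1 for C-3BO minus CL on chow. With library totals alone the count was 2 for transgene (HFD) and 2 for HFD in CL mice. With RLE factors the count was 2 for HFD in CL mice and 1 for C-3BO minus CL on chow. Without the filter the count was 0 for C-3BO minus CL on chow. With the muscle score as covariate the count was 0 for HFD in control mice and 0 for HFD in C-3BO mice. With the liver score as covariate the count was 4 for HFD in C-3BO mice and 4 for HFD in saline mice. Without replicates 4 and 5 of HFD C-3BO the count was 4 for HFD in C-3BO mice.

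Over all genes, the calls were 2030 for agonist (chow), 3122 for agonist (HFD), 4201 for transgene (chow), 4618 for transgene (HFD), 4365 for HFD in control mice, 3408 for HFD in C-3BO mice, 2057 for HFD in saline mice, 3137 for HFD in CL mice, 278 for the C-3BO effect between diets, 2 for the CL effect between diets, 828 for C-3BO minus CL on chow and 239 for C-3BO minus CL on HFD. With a log2 fold change over 1 in addition the count was 342 for agonist (chow), 546 for agonist (HFD), 954 for transgene (chow), 987 for transgene (HFD), 812 for HFD in control mice, 770 for HFD in C-3BO mice, 481 for HFD in saline mice, 710 for HFD in CL mice, 108 for the C-3BO effect between diets and 304 for C-3BO minus CL on chow. With the libraries of a comparison alone the count was 1337 for HFD in saline mice, 160 for the C-3BO effect between diets and 11 for the CL effect between diets. By DESeq2 the count was 457 for the C-3BO effect between diets and 36 for the CL effect between diets. With the muscle score as covariate the count was 1708 for HFD in control mice, 1873 for HFD in C-3BO mice and 8 for the CL effect between diets. With the liver score as covariate the count was 3057 for transgene (HFD), 2263 for HFD in C-3BO mice, 470 for HFD in saline mice, 782 for HFD in CL mice, 138 for the C-3BO effect between diets, 5 for the CL effect between diets and 121 for C-3BO minus CL on HFD. Without replicates 4 and 5 of HFD C-3BO the count was 134 for the C-3BO effect between diets and 113 for C-3BO minus CL on HFD.

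Whether equal replicate numbers pair the mice is not known. In no comparison did every same-numbered pair correlate above 0.1, which does not exclude a pairing of some mice. For transgene (chow) the mean of these correlations was 0.172 (-0.0366 to 0.444), and 3 pairs were above 0.1. In the other comparisons the mean was 0.0598 or less. With a replicate block the count of the 10 genes was 2 for HFD in saline mice and 1 for the C-3BO effect between diets, and that of all genes 888 for agonist (chow), 943 for HFD in saline mice, 0 for the CL effect between diets and 496 for C-3BO minus CL on chow. The block called *Pfkfb3* higher on HFD in C-3BO mice (0.35, adjusted p = 0.0454) and *Hk2* higher with CL on HFD (0.52, adjusted p = 0.0168) and with C-3BO on chow (0.46, adjusted p = 0.0402).

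Leaving out 1 library gave 2 to 4 of the 10 genes and 1354 to 2358 of all genes for agonist (chow), 2 to 2 of the 10 genes and 2441 to 3165 of all genes for agonist (HFD), 2 to 4 of the 10 genes and 3648 to 3979 of all genes for transgene (chow), 2 to 5 of the 10 genes and 3752 to 5014 of all genes for transgene (HFD), 2 to 4 of the 10 genes and 3809 to 4286 of all genes for HFD in control mice, 1 to 4 of the 10 genes and 2759 to 3119 of all genes for HFD in C-3BO mice, 1 to 2 of the 10 genes and 1476 to 2301 of all genes for HFD in saline mice, 1 to 3 of the 10 genes and 2527 to 2834 of all genes for HFD in CL mice, 0 to 0 of the 10 genes and 172 to 453 of all genes for the C-3BO effect between diets, 0 to 0 of the 10 genes and 2 to 15 of all genes for the CL effect between diets, 0 to 1 of the 10 genes and 573 to 935 of all genes for C-3BO minus CL on chow and 0 to 0 of the 10 genes and 110 to 318 of all genes for C-3BO minus CL on HFD.

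Library totals alone moved the median of all genes by -0.142 for agonist (chow), -0.143 for agonist (HFD), -0.197 for transgene (chow), -0.169 for transgene (HFD), 0.152 for HFD in control mice, 0.182 for HFD in C-3BO mice, 0.172 for HFD in saline mice and 0.169 for HFD in CL mice (log2). The share of calls that were higher went from 59.9% to 26.6% for agonist (chow), 54% to 27.9% for agonist (HFD), 49.8% to 20.2% for transgene (chow), 55.3% to 30.1% for transgene (HFD), 46.8% to 71.3% for HFD in control mice, 52.6% to 81.7% for HFD in C-3BO mice, 48.1% to 84.7% for HFD in saline mice and 46.1% to 79.7% for HFD in CL mice.

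Called values that changed sign were *Pgam2* on HFD in C-3BO mice with the muscle score (0.39) and *Aldoc* on HFD in saline mice with the liver score (0.30). Depth limits *Slc2a1* and *Pfkfb2* most, with 3 and 9 counts in their lowest library.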
